A study of Mus musculus with 24 samples.

Results

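Endoplasmic reticulum (ER) chaperones and genes of the unfolded protein response (UPR) were followed through peripheral blood (PB) monocytes of mice. A list of 35 genes was taken by gene symbol from the 53715 genes in the deposited table, and all 35 were found. By role it held 3 stress sensors, 3 transcription factors, 9 luminal chaperones and cofactors, 2 lectin chaperones, 4 disulfide isomerases, 3 translocon genes, 5 genes of ER-associated degradation and 6 targets of the PERK and ATF4 arm. Of these, 33 reached a normalized count of at least 50 in at least 1 of 24 libraries and entered the tests, which covered 11230 genes. Trib3 (0 to 48 normalized counts) and Chac1 (0 to 4) stayed under this limit.

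The ER folds and exports secreted and membrane proteins. When unfolded proteins accumulate in its lumen, the sensors Ern1 (IRE1), Eif2ak3 (PERK) and Atf6 are activated, and through the factors Xbp1, cleaved Atf6 and Atf4 they raise chaperones, foldases, degradation factors and, under lasting stress, the pro-apoptotic factor Ddit3 (CHOP). Cells with a heavy secretory load, such as plasma cells, keep this machinery high.

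The libraries came from Ly6Chi and Ly6Clo monocytes sorted by FACS from PB of wild type (wt) mice and of N2ΔMy mice. In the N2ΔMy mice floxed Notch2 is removed in myeloid cells by Cre under control of Lyz2. All mice were on a C57BL/6 background and 8 to 10 weeks old, and cells of both genotypes were gated on GFP from the Cx3cr1 locus. IMQ-treated mice received 50 mg per day of Aldara, a cream with 5% of the TLR7 agonist imiquimod (IMQ), for 4 to 5 days, and cells were sorted on day 5. The labels give Vaseline for the Sham mice, and the study elsewhere describes a Sham cream and Sham treatment of the sequenced mice. Its methods for these libraries call the controls untreated, so that whether Sham stands for vehicle or for no treatment is not settled here. The 6 groups of 4 libraries were wt and N2ΔMy Ly6Chi cells after Sham, wt and N2ΔMy Ly6Chi cells after IMQ, and wt and N2ΔMy Ly6Clo cells after IMQ. The 6 groups hold no Ly6Clo cells of Sham mice, so the subsets were compared after IMQ only. The study names the low number of Ly6Clo monocytes at steady state as the reason. The labels do not say whether libraries of a group came from separate animals. The study's statistics section describes its n as biological replicates in general, without tying each library to an animal, so p-values measure the spread between these libraries, which may in part be technical.

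Notch2 was lower in every N2ΔMy library than in the wt libraries of the same subset and treatment. It lay between 7240 and 11518 normalized counts in the 12 N2ΔMy libraries and between 12656 and 20005 in the 12 wt libraries, so that Notch2 RNA was reduced but not absent. Gene-level counts do not measure the extent of deletion. The study describes targeting in Ly6Chi monocytes as partial, from flow cytometry and the target gene Hes1 as well. Inferred depth was 9524061 to 19763898 reads per library. The library numbers form 2 series, with replicates 1 and 2 of each group in the first and replicates 3 and 4 in the second. The 3 Ly6Chi markers Ly6c2, Ccr2 and Vcan summed to 26147 to 48811 in Ly6Chi libraries and to 356 to 8213 in Ly6Clo libraries, and 6 Ly6Clo markers summed to 19123 to 41178 and to 75761 to 148771. The 8 plasma cell markers summed to 989 to 6284, carried by Ighm (719 to 3756), Irf4 (143 to 2254) and Prdm1 (13 to 418), which other immune cells also express. Of the others, Igkc reached 50, Sdc1 39, Tnfrsf17 12 and Jchain 7 normalized counts, and Mzb1 was at 0 in all libraries.

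Promoter sequences are shown first because the list is known for a shared element, the ER stress response element (ERSE), at which Atf6 and Xbp1 act with NF-Y. RefSeq windows of 300 bases (GRCm38.p6, 250 before and 50 after the start of each gene) were matched by symbol for 30 of the 35 members. Atf6, Hyou1, Manf, Sec61a1 and Ppp1r15b had none. The letters CCAAT and CCACG separated by 9 bases, searched on both strands, occurred in 8 of 30 members (26.7%), in 12 of 7744 tested genes with a window (0.155%) and in 37 of 27025 genes with a window (0.137%). Of these 8 members, 7 belonged to the 13 folding genes with a window (luminal chaperones, lectin chaperones and disulfide isomerases) and the other was Syvn1. The 9 matches are written below 5′ to 3′ on the strand that holds the motif, with the fixed letters in capitals:
Hspa5, chr2:34772025-34772043: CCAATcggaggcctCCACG
Hsp90b1, chr10:86705638-86705656: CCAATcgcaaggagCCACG
Hsp90b1, chr10:86705533-86705551: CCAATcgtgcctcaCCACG
Dnajc3, chr14:118937827-118937845: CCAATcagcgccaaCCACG
Creld2, chr15:88819520-88819538: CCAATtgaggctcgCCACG
Calr, chr8:84847075-84847093: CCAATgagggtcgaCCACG
Canx, chr11:50325800-50325818: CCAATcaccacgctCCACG
Pdia6, chr12:17266491-17266509: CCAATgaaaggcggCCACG
Syvn1, chr19:6046532-6046550: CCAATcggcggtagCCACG

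The 250 bases before the start of Hspa5 and of Hsp90b1, the most abundant HSP70 and HSP90 chaperones of the ER lumen, show where these matches lie. They are written 5′ to 3′ on the strand of the gene, which is the plus strand for Hspa5 and the minus strand for Hsp90b1, with the fixed letters in capitals. Hsp90b1 holds 1 match in each orientation:
Hspa5, chr2:34771840-34772089: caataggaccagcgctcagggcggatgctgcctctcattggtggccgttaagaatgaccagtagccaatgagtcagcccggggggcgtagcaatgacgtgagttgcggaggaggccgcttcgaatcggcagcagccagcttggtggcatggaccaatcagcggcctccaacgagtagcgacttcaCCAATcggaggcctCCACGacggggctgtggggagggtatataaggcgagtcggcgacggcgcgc
Hsp90b1, chr10:86705445-86705694: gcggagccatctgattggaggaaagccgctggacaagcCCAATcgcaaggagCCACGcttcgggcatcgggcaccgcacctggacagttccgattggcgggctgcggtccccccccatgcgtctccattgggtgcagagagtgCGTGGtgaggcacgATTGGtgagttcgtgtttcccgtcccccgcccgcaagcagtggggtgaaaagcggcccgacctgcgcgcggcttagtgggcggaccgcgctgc

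A second form, ERSE-II (ATTGG and CCACG separated by 1 base), was found in 2 of 30 members (6.67%, against 0.0444% of all windows). These were Dnajb11 (chr16:22857852-22857862: ATTGGcCCACG) and Herpud1 (chr8:94386377-94386387: ATTGGgCCACG). The C/EBP-ATF element TGATGCAA, the form through which Atf4 and Ddit3 act, was found in Herpud1 and Chac1 (6.67%, against 1.03%), and the core of the UPR element TGACGTGG in no member (0.714% of all windows). CCAAT alone, which every ERSE contains, was present in 22 of 30 members and in 41.1% of all windows. These are letter matches in 1 window per gene and were not tested for binding.

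The question put first was what IMQ changed in Ly6Chi cells. No member was called in wt cells and only Dnajb9 in N2ΔMy cells, while smaller differences, of Atf6 and P4hb among others, passed the test without a minimum fold change. A gene was called where limma, run on log2 of the value plus 1, gave an adjusted p (Benjamini-Hochberg, over all genes tested) up to 0.05 and the log2 fold change was 0.6 or more in size. At this rule 0 of 33 members were higher and 0 lower in wt cells, where 4.43% of all genes tested were higher and 5.07% lower, and 9 members had an unadjusted p under 0.05, as did 29.4% of all genes. In N2ΔMy cells 0 members were higher and 1 lower, where 4.15% of all genes were higher and 4.55% lower. There 13 of 33 members had an unadjusted p under 0.05 by limma, as did 3040 of 11230 genes.

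Dnajb9 (ERdj4), an IRE1-dependent cochaperone of Hspa5, stood at 398, 474, 345 and 493 normalized counts in the 4 N2ΔMy Sham libraries and at 231, 316, 266 and 307 in the 4 N2ΔMy IMQ libraries. The groups did not overlap. It fell by 0.61 on the log2 scale (SE 0.15, limma adjusted p = 0.0268), just past the limit. In wt cells it stood at 384, 419, 345 and 364 after Sham and at 186, 234, 328 and 292 after IMQ, again with no overlap. The wt difference was -0.57 (SE 0.17, limma adjusted p = 0.0513) and missed both limits. In N2ΔMy cells the call was kept in 3 of 8 fits that each left out 1 library.

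With no minimum fold change, 6.95% of all genes were higher and 8.65% lower in wt cells, and 6.73% were higher and 7.02% lower in N2ΔMy cells. Among the members, Atf6, the membrane-bound sensor that becomes a transcription factor, was then lower and P4hb, the classical protein disulfide isomerase, higher in both genotypes. Atf6 lay between 3582 and 3894 normalized counts in wt Sham and between 2810 and 3104 in wt IMQ libraries, a log2 difference of -0.30 (SE 0.07, limma adjusted p = 0.0149), and the log2 difference in N2ΔMy cells was -0.34 (SE 0.09, limma adjusted p = 0.0355). P4hb lay between 5362 and 5689 in wt Sham and between 6655 and 8843 in wt IMQ libraries. Its log2 difference was 0.40 (SE 0.10, limma adjusted p = 0.0177) in wt and 0.43 (SE 0.11, limma adjusted p = 0.025) in N2ΔMy cells. Sec61b, a subunit of the translocation channel (0.48, SE 0.12, limma adjusted p = 0.0219), and Herpud1, a scaffold of the degradation complex (-0.36, SE 0.08, limma adjusted p = 0.0157), passed this looser rule in N2ΔMy cells only, and the difference between genotypes was not called for either. Each of these passes was lost in at least 1 fit that left out 1 library. The largest limma adjusted p was then 0.0526 in wt and 0.0966 in N2ΔMy cells for Atf6, and 0.0533 and 0.0728 for P4hb. For Sec61b and Herpud1 in N2ΔMy cells it was 0.0597 and 0.0501.

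The 15 folding genes did not move one way with IMQ. Their median log2 difference was 0.01 in wt cells, with 8 of 15 above 0, and -0.07 in N2ΔMy cells, with 5 of 15 above 0, where the median of all genes was 0.01 in both. In wt cells the median was -0.22 within the first library series and 0.14 within the second. Other cell markers did move with IMQ. The 8 neutrophil markers summed to 2 to 59 normalized counts in Sham and to 921 to 5213 in IMQ Ly6Chi libraries, but S100a8 and S100a9 carried this sum (means of 1323 and 863 in wt IMQ libraries). Ly6g, which defines neutrophils, was at 0 in all 8 Ly6Chi IMQ libraries, and the other 5 neutrophil markers stayed at or under 19 in them. The 4 cycling-cell markers summed to 189 to 434 after Sham and to 1072 to 2607 after IMQ. The 6 macrophage markers summed to between 2985 and 4303 after Sham and between 860 and 2716 after IMQ, lower without overlap. This sum rested on Siglec1 (means of 2065 and 187 in wt, 1964 and 175 in N2ΔMy libraries) and in part on Maf. Mertk, C1qa, C1qb and C1qc, which had low values, had higher means after IMQ. The 5 conventional dendritic cell markers summed to between 823 and 1686 after Sham and between 270 and 529 after IMQ, again lower without overlap. Their part in these values was not tested.

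Outside the list, a few genes of neighbouring stress pathways were called with IMQ. Of 28 other ATF4 targets tested, 3 were higher, led by Psat1 and Psph (log2 differences of 0.98 and 0.82), and 1 lower (Atf3, -1.12) in wt cells. In N2ΔMy cells 1 was higher (Shmt2, 0.73) and 1 lower (Atf3, -0.70). Psat1, Psph and Shmt2 act in serine and one-carbon metabolism. Of 14 cytosolic heat shock genes, 0 were higher and 4 lower in wt cells, led by Hspa1b (-2.09), Hsph1 (-0.95) and Dnaja1 (-0.89), and 0 were higher and 2 lower in N2ΔMy cells. Hspa1b had low values that overlapped, at 52 to 221 in wt Sham and 9 to 63 in wt IMQ libraries (SE 0.63, limma adjusted p = 0.0458). Eif2ak2 (PKR), the interferon-induced eIF2α kinase, was lower in both genotypes (-1.15 and -1.14). Creld1, a relative of Creld2, was higher in N2ΔMy cells (0.77). None of the 27 other translocon, signal peptidase and oligosaccharyltransferase genes or 18 other degradation genes was called.

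**Figure D1:**
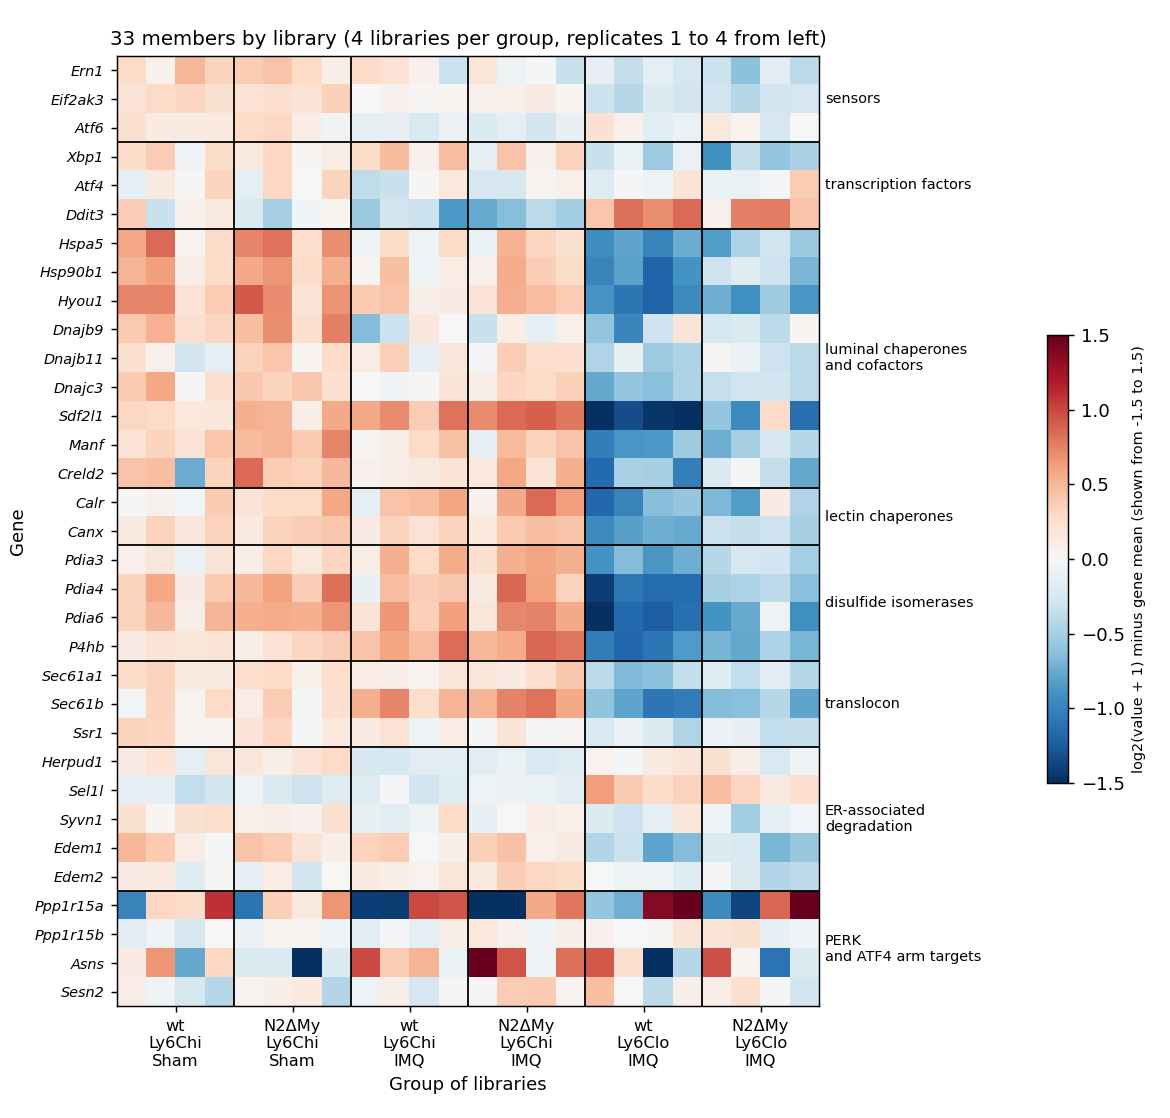
Heat map of the 33 members tested (rows, by role) in 24 libraries (columns, 4 per group), coloured by log2(value + 1) minus the mean of the gene over all libraries, with colours ending at -1.5 and 1.5. The folding genes are mostly blue in Ly6Clo libraries, more so in wt than in N2ΔMy, while Ddit3 and Sel1l are red there and Ppp1r15a changes between replicates 1 and 2 and replicates 3 and 4 of most groups.

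The largest differences lay between the monocyte subsets. After IMQ, Ly6Clo cells held far less RNA of the ER folding machinery than Ly6Chi cells of the same genotype, whereas the stress-induced factor Ddit3 was higher. In wt cells 16 of 33 members were lower and 1 higher, where 12.7% of all genes tested were lower and 11.9% higher. In N2ΔMy cells 15 were lower and 1 higher, where 8.38% of all genes were lower and 9.01% higher. The median log2 difference of the 33 members was -0.62 in wt and -0.60 in N2ΔMy cells, beside -0.01 for all genes in both. Both genotypes were compared within their own Ly6Chi group, so the comparisons share no library. Within the first and second library series, 19 and 16 members were called in wt cells, as were 23.1% and 18.2% of all genes, and 14 and 20 in N2ΔMy cells, as were 16.6% and 22.1% of all genes.

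Summed over the 15 folding genes, RNA made up 0.376% ± 0.0375 (SD, n = 4) of the library in wt Ly6Chi and 0.165% ± 0.014 in wt Ly6Clo cells after IMQ. In N2ΔMy cells the shares were 0.413% ± 0.0449 and 0.227% ± 0.0294. The Ly6Clo share was thus 43.8% of the Ly6Chi share in wt and 54.8% in N2ΔMy cells, and libraries of the subsets did not overlap. In bulk libraries, less RNA of these genes per cell and fewer cells that hold them cannot be told apart.

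**Figure D2:**
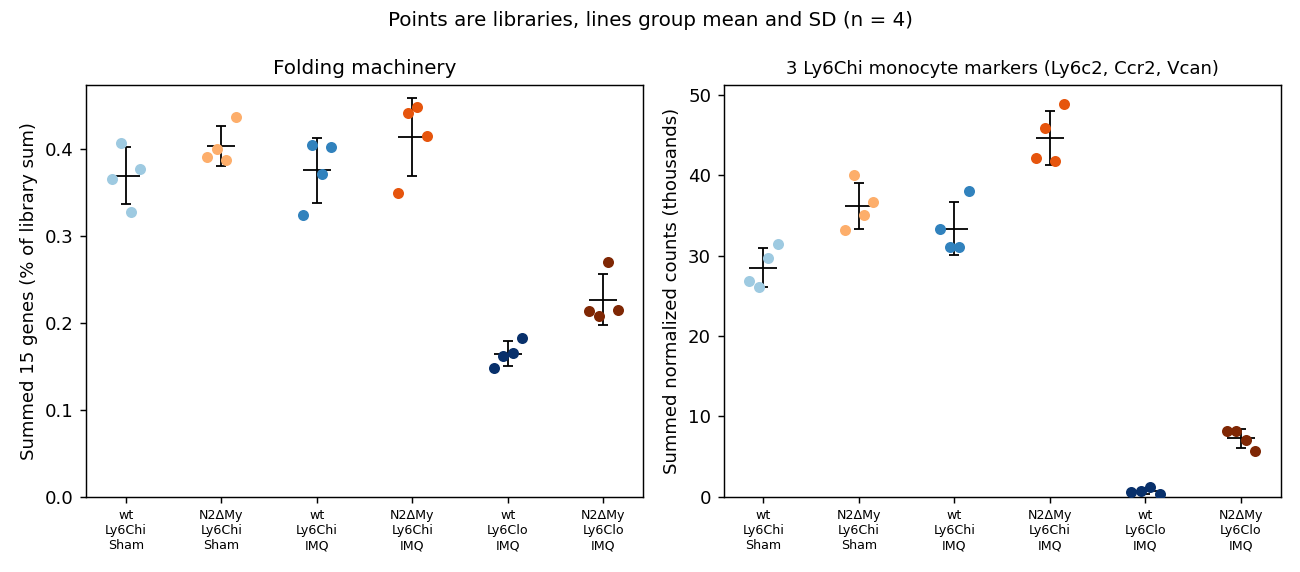
Left, summed normalized counts of the 15 folding genes as a percent of the library sum. Right, summed normalized counts of the 3 Ly6Chi markers in units of 1000. Points are libraries and lines the group mean and SD (n = 4). The Ly6Clo libraries lie lowest in both plots, and N2ΔMy Ly6Clo libraries lie above wt Ly6Clo libraries in both.

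Among the luminal chaperones and cofactors, 7 of 9 were lower in wt and 6 of 9 in N2ΔMy Ly6Clo cells. Sdf2l1, a partner of the J-domain cochaperones, changed most. It stood at 500, 550, 437 and 591 normalized counts in wt Ly6Chi and at 119, 133, 122 and 102 in wt Ly6Clo libraries, and was 4.33-fold lower (log2 -2.11, SE 0.15, limma adjusted p = 2.1e-06). In N2ΔMy cells it stood at 551, 607, 628 and 581 in Ly6Chi and at 224, 173, 410 and 153 in Ly6Clo libraries. The third of these Ly6Clo libraries stood well above the others, and the groups still did not overlap (log2 -1.41, SE 0.26, limma adjusted p = 0.00225).

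Hyou1 (GRP170), a nucleotide exchange factor for Hspa5, stood at 1527, 1560, 1240 and 1262 in wt Ly6Chi and at 629, 549, 505 and 598 in wt Ly6Clo libraries. The N2ΔMy libraries stood at 1339, 1697, 1597 and 1511 in Ly6Chi and at 698, 616, 805 and 635 in Ly6Clo cells. The subsets were clearly apart in both genotypes, with log2 differences of -1.29 (SE 0.12, limma adjusted p = 1.2e-05) and -1.16 (SE 0.12, limma adjusted p = 4.06e-05). Hspa5 (BiP), the central chaperone that also holds the sensors inactive, lay between 3668 and 4721 in wt Ly6Chi and between 1926 and 2304 in wt Ly6Clo libraries, a log2 difference of -0.97, and its N2ΔMy difference was -0.78. Hsp90b1 (GRP94) differed by -1.10 and -0.69, Manf by -1.03 and -0.75 and Creld2 by -0.92 and -0.72, each called in both genotypes. The call of Creld2 in N2ΔMy cells was kept in 5 of 8 fits that left out 1 library. Dnajc3 (P58IPK) was called in wt only, at -0.65 against -0.60, which is a matter of the limit of 0.6. Dnajb11 and Dnajb9 were not called in either genotype.

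Both lectin chaperones, which hold glycoproteins during folding, were lower in both genotypes. Canx, the membrane-bound member, stood at 6980, 8184, 7462 and 8106 in wt Ly6Chi and at 3308, 3649, 3879 and 3811 in wt Ly6Clo libraries. In N2ΔMy libraries it stood at 7168, 8425, 8764 and 8642 in Ly6Chi and at 5137, 4996, 5197 and 4554 in Ly6Clo cells. Replicates were tight and the subsets did not overlap, with log2 differences of -1.07 (SE 0.09, limma adjusted p = 8.1e-06) and -0.73 (SE 0.10, limma adjusted p = 0.000305). Calr, its soluble relative, differed by -1.19 and -0.99.

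All 4 disulfide isomerases were lower in both genotypes, with the largest median of any role (-1.55 in wt and -1.10 in N2ΔMy cells). P4hb stood at 6655, 7408, 6773 and 8843 in wt Ly6Chi and at 2408, 2170, 2326 and 2737 in wt Ly6Clo libraries, 3.07-fold lower (log2 -1.62, SE 0.11, limma adjusted p = 2.18e-06). The N2ΔMy libraries stood at 6935, 7254, 8951 and 8631 in Ly6Chi and at 3042, 2896, 3581 and 3059 in Ly6Clo cells, 2.52-fold lower (log2 -1.33, SE 0.11, limma adjusted p = 1.04e-05). Thus P4hb, which was higher after IMQ in Ly6Chi cells at the looser rule, lay lower in IMQ Ly6Clo cells than in any Ly6Chi library. Pdia6 stood at 1452, 2000, 1626 and 1948 in wt Ly6Chi and at 423, 567, 537 and 579 in wt Ly6Clo libraries, a log2 difference of -1.73 (SE 0.14, limma adjusted p = 5.21e-06). In N2ΔMy cells Pdia6 stood at 1438, 2104, 2126 and 1891 and at 685, 753, 1206 and 671, and its log2 difference was -1.22. As for Sdf2l1, the third N2ΔMy Ly6Clo library was the highest of its group.

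Pdia4 (ERp72) stood at 1258, 1863, 1757 and 1800 in wt Ly6Chi and at 508, 646, 607 and 606 in wt Ly6Clo libraries. In N2ΔMy libraries it stood at 1492, 2463, 2054 and 1728 in Ly6Chi and at 958, 985, 1032 and 874 in Ly6Clo cells. The Ly6Clo groups were the tighter ones and did not overlap with Ly6Chi or with each other. The log2 differences between subsets were -1.48 (SE 0.14, limma adjusted p = 1.48e-05) in wt and -0.98 (SE 0.15, limma adjusted p = 0.000572) in N2ΔMy cells. Pdia3 (ERp57), the partner of the lectin chaperones, stood at 4675, 6277, 5309 and 6417 in wt Ly6Chi and at 2344, 2776, 2370 and 2621 in wt Ly6Clo libraries. The N2ΔMy libraries stood at 5150, 6296, 6540 and 6307 in Ly6Chi and at 3238, 3652, 3555 and 3058 in Ly6Clo cells. Its subsets were apart in both genotypes, by -1.16 (SE 0.12) and -0.84 (SE 0.11) on the log2 scale.

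**Figure D3:**
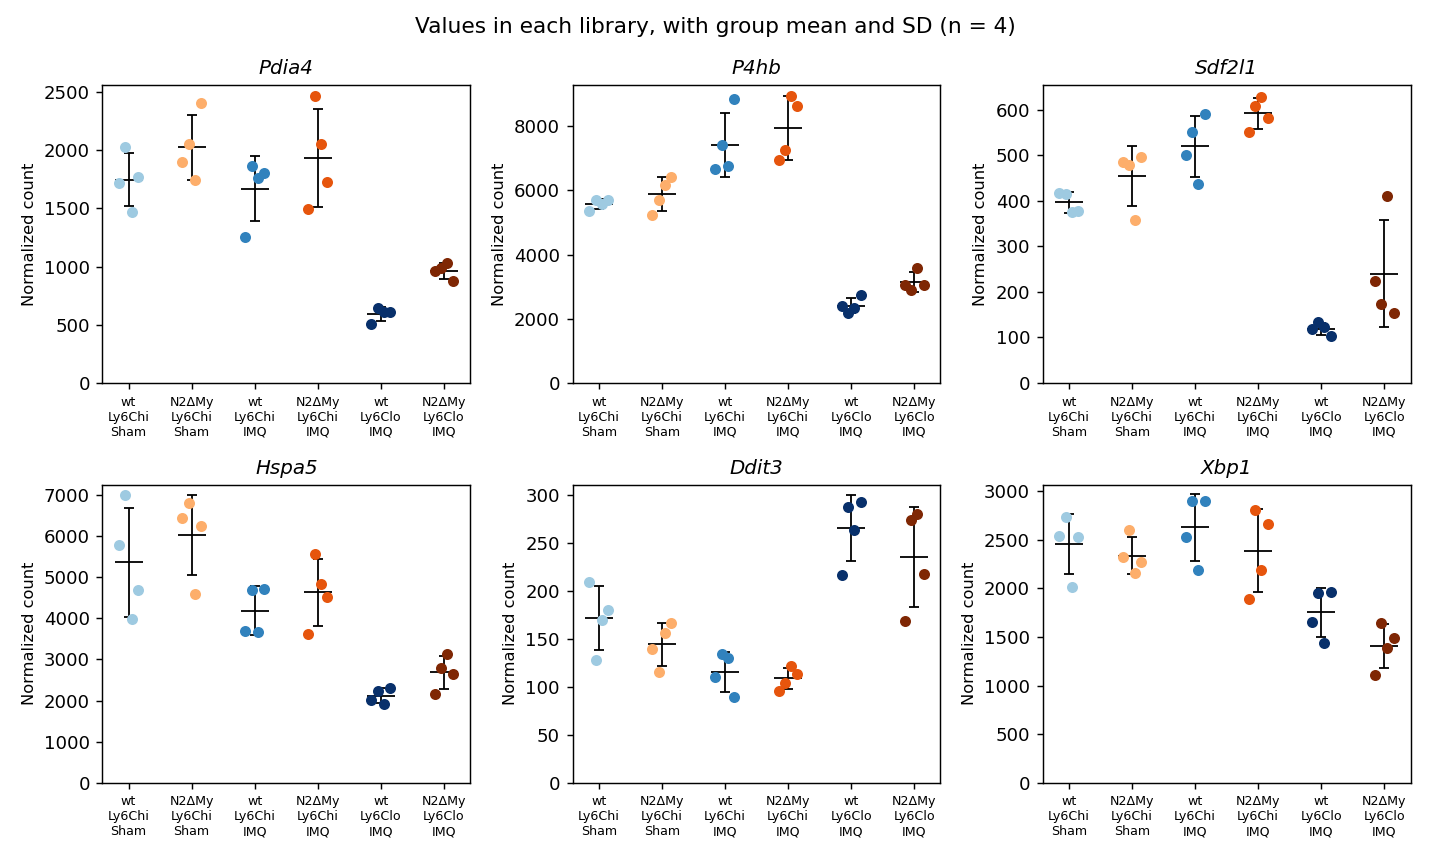
Normalized counts of Pdia4, P4hb, Sdf2l1, Hspa5, Ddit3 and Xbp1 in each library (points), with group mean and SD (n = 4), on axes that start at 0. The group means of the first 4 genes are lowest and that of Ddit3 highest in Ly6Clo cells, with single libraries overlapping between genotypes, and 1 N2ΔMy Ly6Clo library (410) stands apart for Sdf2l1.

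Of the translocon, through which nascent chains enter the ER, Sec61b stood at 645, 743, 538 and 637 in wt Ly6Chi and at 295, 257, 211 and 215 in wt Ly6Clo libraries. In N2ΔMy libraries it stood at 639, 749, 787 and 666 and at 284, 288, 332 and 258. Neither pair of groups overlapped, and the log2 differences were -1.39 (SE 0.15, limma adjusted p = 3.85e-05) and -1.29 (SE 0.12, limma adjusted p = 2.72e-05). Sec61a1, the pore subunit, was called in wt only (-0.62 against -0.53), and Ssr1 was not called in either genotype. Of 27 other genes of translocation and N-glycosylation, 1 was higher and 7 lower in wt and 0 higher and 5 lower in N2ΔMy cells. Rpn1, Ostc and Rpn2 of the oligosaccharyltransferase led the lower ones in wt cells (-1.54, -1.06 and -1.06). Rpn1, Ostc and Spcs2, a signal peptidase subunit, led them in N2ΔMy cells (-1.07, -0.91 and -0.80). Stt3b, a catalytic subunit of that complex, was the higher one (0.74 in wt cells). Of 24 other folding and redox genes, 1 was higher (Qsox1, 0.98) and 5 lower (led by Creld1, -1.15, and Lman1, -0.79) in wt cells, and 0 were higher and 2 lower (Txndc5, -0.81, and Ero1lb, -0.79) in N2ΔMy cells.

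The sensors differed little. Ern1 stood at 3528, 3367, 3043 and 2312 in wt Ly6Chi and at 2672, 2271, 2624 and 2416 in wt Ly6Clo libraries after IMQ, and in N2ΔMy libraries at 3287, 2746, 2847 and 2293 and at 2327, 1896, 2593 and 2209. These ranges overlapped in both genotypes. Eif2ak3 stood at 1310, 1381, 1332 and 1358 in wt Ly6Chi and at 1053, 978, 1140 and 1088 in wt Ly6Clo libraries, and averaged 1392 ± 32.3 (SD, n = 4) in N2ΔMy Ly6Chi and 1059 ± 53.5 in N2ΔMy Ly6Clo libraries. Its groups did not overlap, yet the log2 differences of -0.34 (SE 0.08, limma adjusted p = 0.00928) and -0.40 (SE 0.09, limma adjusted p = 0.00663) were under the minimum of 0.6. Atf6 stood at 2993, 3032, 2810 and 3104 in wt Ly6Chi and at 3855, 3484, 2923 and 3065 in wt Ly6Clo libraries, and in N2ΔMy libraries at 2867, 3001, 2734 and 3064 and at 3689, 3417, 2774 and 3306. For Atf6 the subsets overlapped and no difference passed the test.

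The 3 transcription factors did not move together. Ddit3 stood at 110, 134, 130 and 89 in wt Ly6Chi and at 217, 288, 264 and 293 in wt Ly6Clo libraries, 2.3-fold higher (log2 1.20, SE 0.18, limma adjusted p = 0.000415). The N2ΔMy libraries stood at 96, 104, 122 and 113 and at 169, 274, 280 and 218, 2.12-fold higher (log2 1.08, SE 0.19, limma adjusted p = 0.00206). Subsets did not overlap in either genotype, and Ddit3 was the only member called higher in Ly6Clo cells with all libraries. Ddit3 stayed called in all 8 fits that left out 1 library in each genotype, and in 2 of these 8 in wt cells Sel1l was called higher too. In Sham Ly6Chi libraries Ddit3 lay between 128 and 209 in wt and between 115 and 167 in N2ΔMy cells, also below the Ly6Clo libraries of the same genotype.

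Xbp1, the transcription factor made active by IRE1 splicing, stood at 2534, 2904, 2185 and 2899 in wt Ly6Chi and at 1658, 1954, 1437 and 1965 in wt Ly6Clo libraries. In N2ΔMy libraries it stood at 1895, 2812, 2191 and 2662 and at 1111, 1641, 1390 and 1492. It was lower in both genotypes without overlap, by -0.59 (SE 0.13, limma adjusted p = 0.00492) in wt, just under the minimum, and by -0.76 (SE 0.15, limma adjusted p = 0.004) in N2ΔMy cells, where it was called. Gene-level counts do not separate spliced from unspliced Xbp1. Atf4, which is controlled mainly through translation, stood at 1109, 1145, 1458 and 1613 in wt Ly6Chi and at 1263, 1415, 1364 and 1648 in wt Ly6Clo libraries. In N2ΔMy libraries Atf4 lay between 1211 and 1525 and between 1340 and 1878. The Atf4 ranges overlapped in both genotypes and no test was passed.

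Members of ER-associated degradation split. Edem1, which selects misfolded glycoproteins, was lower in both genotypes (-0.76 and -0.67). Sel1l, the adaptor of the Syvn1 ubiquitin ligase, was higher at the looser rule with no minimum fold change, by 0.58 (SE 0.10, limma adjusted p = 0.00104) in wt and 0.39 (SE 0.09, limma adjusted p = 0.00917) in N2ΔMy cells, and Herpud1 likewise in wt cells only (0.30). Edem2 was lower at that rule in N2ΔMy cells only (-0.55). At that rule 18.3% of all genes were higher and 17.3% lower in wt cells, and 13% higher and 11.8% lower in N2ΔMy cells. In counts, 3 members were then higher and 20 lower in wt, and 2 higher and 20 lower in N2ΔMy cells. Syvn1 lay between 342 and 600 in all 24 libraries. Of 18 other degradation genes tested only Ube2g2, a ubiquitin-conjugating enzyme, was called, and it was higher (1.33 in wt, 1.00 in N2ΔMy cells).

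Of the 4 tested targets of the PERK and ATF4 arm, none was called between subsets. Ppp1r15b, the constitutive eIF2α phosphatase subunit, lay between 4092 and 5658 in all 24 libraries and Sesn2 between 173 and 320. Ppp1r15a (GADD34), the inducible subunit, is described here after its values were seen, because it was set apart by library series. Over all groups it lay between 176 and 738 (median 277) in the 12 libraries of the first series and between 635 and 1964 (median 1073) in the 12 of the second. In wt Ly6Chi IMQ libraries it stood at 215, 213, 1145 and 1107, and in wt Ly6Clo libraries at 385, 347, 1489 and 1964. The Ly6Clo libraries were thus higher within each series while the pooled groups overlapped. The pooled log2 difference of 0.69 (SE 0.71, limma adjusted p = 0.493) was not called, whereas a fit blocked by replicate number called it (limma adjusted p = 5.43e-05). In N2ΔMy cells Ppp1r15a stood at 200, 176, 853 and 994 in Ly6Chi and at 297, 220, 1039 and 1766 in Ly6Clo libraries, higher in 4 of 4 pairs of the same number. The log2 difference there was 0.50, under the minimum of 0.6, with a limma adjusted p of 0.662 without and 0.00788 with the block, so that it was not called in either fit.

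The mean log2 difference between series was 1.85 for Ppp1r15a, positive in 6 of 6 groups, where the median size over all genes was 0.18. Of 10 immediate early genes, 8 had a higher and 2 a lower median in the second series, with no test. Fos had a median of 3253 in the first and 5598 in the second series, Jun of 643 and 1508, and Dusp1 of 1640 and 3985, while Ier2 had 1614 and 1597, Egr1 166 and 146, and Btg2 2423 and 2519. Asns, the asparagine synthetase, went the other way, with a mean log2 difference of -1.06 and values of 2 to 90. Its calls turned on the block as well: with the block Asns was called lower in N2ΔMy Ly6Clo than Ly6Chi cells (log2 -0.88, limma adjusted p = 0.0363, against 0.198 without) and higher after IMQ in N2ΔMy Ly6Chi cells (log2 1.81, limma adjusted p = 0.0199, against 0.13 without). In the latter, 1 N2ΔMy Sham library was at 2 and the other 3 at 27. The cause of the series difference was not tested.

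**Figure D4:**
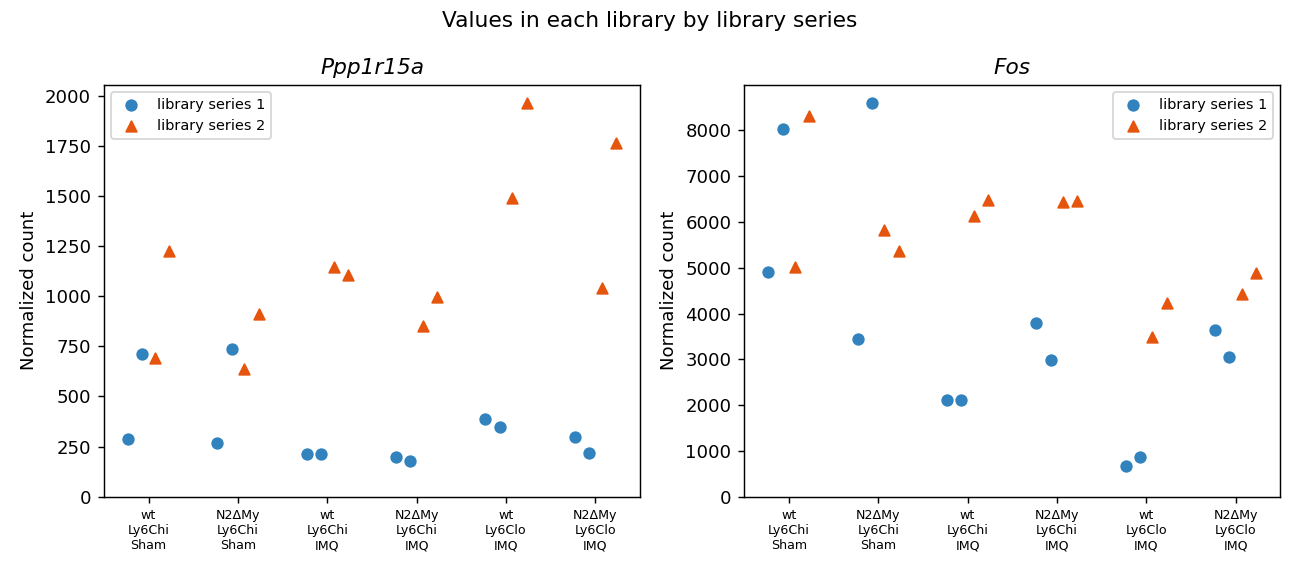
Normalized counts of Ppp1r15a (left) and Fos (right) in each library by group. Circles are libraries of series 1 (replicates 1 and 2) and triangles of series 2 (replicates 3 and 4). After IMQ every triangle lies above every circle of the same group for both genes.

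The other ATF4 targets went both ways between subsets, with 5 higher and 5 lower of 28 in wt and 3 higher and 2 lower in N2ΔMy cells. Gpt2 (-2.40) and the amino acid transporter Slc7a5 (-2.14) were lower and Ddit4, an inhibitor of mTORC1, higher (2.14) in wt cells. In N2ΔMy cells Gpt2 (-2.47) and Psat1 (-0.85) were lower and Ddit4 (2.11) higher. Among other sensors and eIF2α kinases, Creb3l2, an ER-bound factor related to Atf6, was lower in both genotypes (-1.34 and -1.72) and Creb3l1 higher (1.66 and 1.94). Creb3l1 had low values, at 11 to 28 in wt Ly6Chi and 45 to 91 in wt Ly6Clo libraries. Its N2ΔMy subsets overlapped (6 to 47 and 32 to 102). Only Stip1 of 14 heat shock genes was called, higher in both genotypes (0.62 and 0.71). The neutrophil marker sum (1172 to 4937 in wt Ly6Chi, 17 to 290 in wt Ly6Clo libraries) again rested on S100a8 and S100a9, while Ngp, Ltf and Retnlg had higher means in wt Ly6Clo (14, 19.3 and 13.5) than in wt Ly6Chi libraries (4.25, 4 and 1). Cycling-cell markers summed to 1457 to 2607 in wt Ly6Chi and to 195 to 397 in wt Ly6Clo libraries, and to 1072 to 1871 and to 281 to 768 in the N2ΔMy subsets. In N2ΔMy cells the neutrophil marker sum was 921 to 5213 in Ly6Chi and 93 to 256 in Ly6Clo libraries. The macrophage marker sum was 860 to 1625 in wt Ly6Chi and 504 to 814 in wt Ly6Clo libraries, and 1515 to 2716 and 4666 to 5604 in the N2ΔMy subsets. Maf carried most of this, with means of 972 and 548 in wt and 1734 and 3132 in N2ΔMy cells. C1qa, C1qb and C1qc had higher means in Ly6Clo cells of both genotypes (C1qb 33.8 and 71.8 in wt, 43 and 1023 in N2ΔMy cells), and Siglec1 lower ones. The part of these markers was not tested.

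Folding genes were below 0 between wt subsets with and without a match to ERSE, but not all were called. The 7 folding genes with a match had log2 differences of -1.73 to -0.65 between wt subsets. The 6 with a window and no match to ERSE had -2.11 (Sdf2l1) to -0.22 (Dnajb9). Of these, Dnajb9 and Dnajb11 (-0.52) were not called, and Dnajb11 holds a match to ERSE-II. Among other members, Syvn1 holds a match and was not called (-0.11), and Ddit3 (1.20) and Sel1l (0.58), without a match, were above 0. This is a description of these windows only.

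**Figure D5:**
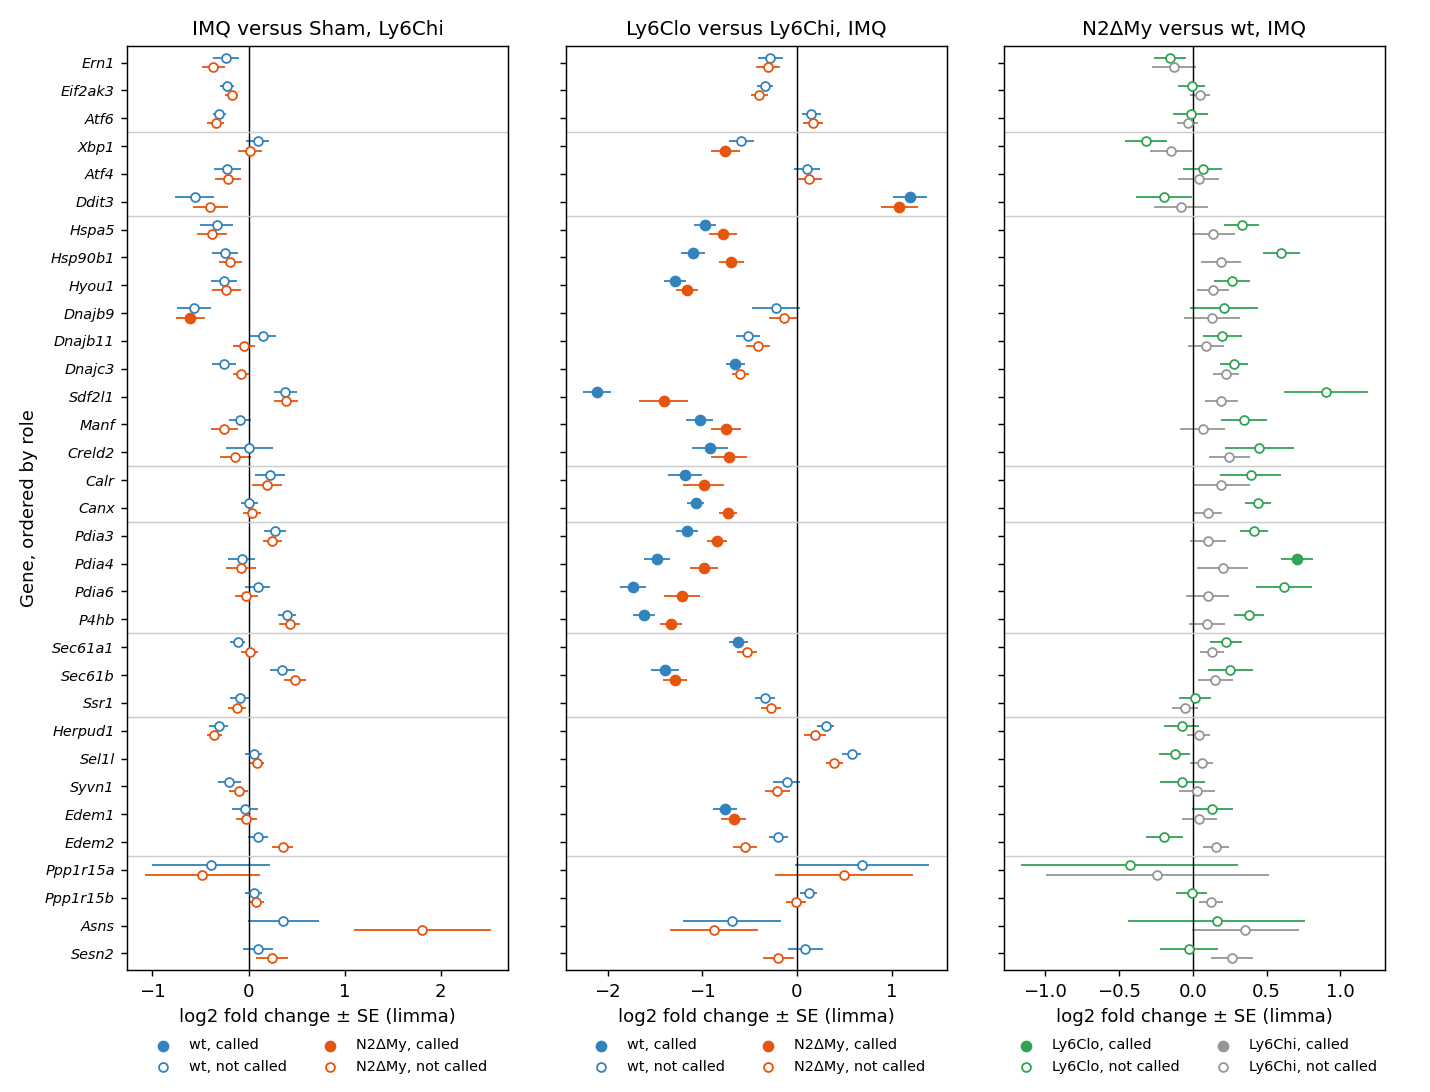
log2 fold changes with SE (limma) of the 33 members, ordered by role, for IMQ versus Sham in Ly6Chi cells (left), Ly6Clo versus Ly6Chi cells after IMQ (middle) and N2ΔMy versus wt cells after IMQ (right). Filled points are called and open points are not. The folding genes lie left of 0 in the middle panel in both genotypes and right of 0 in the right panel, where only Pdia4 in Ly6Clo cells is filled.

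The last comparison asked what loss of Notch2 changed. In Ly6Clo cells after IMQ only Pdia4 was called among 33 members, and it was higher in N2ΔMy cells. At this rule 1 member was higher and 0 lower, where 3.12% of all genes were higher and 1.67% lower. Pdia4 stood at 958, 985, 1032 and 874 in N2ΔMy and at 508, 646, 607 and 606 in wt Ly6Clo libraries, 1.63-fold higher without overlap (log2 0.70, SE 0.11, limma adjusted p = 0.00339). It stayed called in all 8 fits that left out 1 library. Within the library series the difference was 0.76 and 0.65.

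A fit blocked by replicate number called more genes in all (4.92% higher and 3.45% lower) and 3 members higher, as Sdf2l1 (log2 0.90, limma adjusted p = 0.0179 against 0.0969 without the block) and Pdia6 (log2 0.62, limma adjusted p = 0.0111 against 0.0894) joined Pdia4. With no minimum fold change, where 3.7% of all genes were higher and 2.71% lower, 4 members were higher and 0 lower, namely Pdia4, Hsp90b1 (0.60, SE 0.13, limma adjusted p = 0.0183), Canx (0.44, SE 0.09, limma adjusted p = 0.0133) and Pdia3 (0.42, SE 0.09, limma adjusted p = 0.0266). All 4 are folding genes. Hsp90b1 missed the first rule by its size alone. Without wt Ly6Clo replicate 1 the limma adjusted p was 0.057 for Hsp90b1 and 0.0843 for Pdia3. For Canx it stayed at or under 0.0455 in all 8 fits that left out 1 library.

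The log2 difference was above 0 for 15 of 15 folding genes, with a median of 0.39, beside 5562 of 11230 genes above 0 and a median of -0.00 for all genes tested. It stayed above 0 for 15 of 15 under upper-quartile scaling and quantile normalization and within the first series, and for 14 of 15 within the second. Their summed share was 137.6% of the wt Ly6Clo share, without overlap between libraries (0.208% to 0.27% against 0.148% to 0.182%). Of the other roles, 3 of 3 translocon genes (median 0.22), 0 of 3 sensors, 1 of 3 transcription factors, 1 of 5 degradation genes and 1 of 4 targets of the PERK and ATF4 arm were above 0. Outside the list, 23 of 27 other translocon, signal peptidase and oligosaccharyltransferase genes (median 0.15), 17 of 24 other folding and redox genes (0.16) and 12 of 14 cytosolic heat shock genes (0.28) were above 0 too. Of other genes, Rpn1 (0.61) and the ATF4 targets Slc7a5 (1.81), Atf3 (1.36) and Slc3a2 (0.64) were higher, and none of 24 other folding and redox genes was called. Slc7a5 had low values, at 47 to 82 in N2ΔMy and 9 to 21 in wt Ly6Clo libraries.

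Markers of both monocyte subsets and of macrophages moved with these values. The 6 Ly6Clo markers summed to 75761 to 86107 normalized counts in N2ΔMy Ly6Clo and to 128008 to 148771 in wt Ly6Clo libraries, lower in N2ΔMy without overlap. Cd36 is among these markers, and the study reports it as higher in N2ΔMy Ly6Clo cells, against the sum. In N2ΔMy Ly6Clo libraries the 3 Ly6Chi markers summed to 5733 to 8213 normalized counts, against 356 to 1236 in wt Ly6Clo libraries, with Ly6c2 itself at 46 to 382 and at 12 to 92. The 6 macrophage markers summed to 4666 to 5604 against 504 to 814, with 6 of 6 and 2 of 6 genes reaching 50. Dendritic cell markers summed to 206 to 1626 against 83 to 522, and B cell markers to 75 to 176 against 55 to 124. The 8 plasma cell markers summed to 1581 to 3413 against 989 to 2392. Among them Irf4 lay between 766 and 1399 against 143 and 408, Igkc between 0 and 50 against 0 and 2, and Jchain between 0 and 7 against 0, while Mzb1 was at 0 in both. The part of these cells in the folding gene difference was not tested.

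In Ly6Chi cells no member was called between genotypes. After IMQ 0 members were higher and 0 lower by limma, where 0.0178% of all genes were higher and 0.0089% lower, and 1 member had an unadjusted p under 0.05, as did 6.05% of all genes. After Sham 0 were higher and 0 lower, where 0.0089% of all genes were higher and 0.0089% lower, and 3 members had an unadjusted p under 0.05, as did 5.21% of all genes. Differences of the folding genes were nevertheless above 0 for 15 of 15 in each, with medians of 0.14 and 0.19, where 5950 and 5863 of 11230 genes were above 0. Within the first series 13 of 15 were above 0 in each, and within the second 14 after IMQ and 15 after Sham. The median after IMQ was 0.07 without wt replicate 1, 0.09 without N2ΔMy replicate 2 and 0.23 without N2ΔMy replicate 1. The median after Sham was 0.11 without wt replicate 3 and 0.12 without N2ΔMy replicate 2. Their summed share in N2ΔMy cells was 110.1% of the wt share after IMQ and 109.3% after Sham, and libraries of the genotypes overlapped in both treatments. Subset markers moved too. The 3 Ly6Chi markers summed to 41790 to 48811 in N2ΔMy against 31029 to 37992 in wt after IMQ. After Sham they summed to 33217 to 39979 against 26147 to 31393. The 6 Ly6Clo markers summed to 19689 to 28177 against 28095 to 41178 after IMQ and to 19123 to 24600 against 27270 to 31740 after Sham. The part of these markers was not tested. The comparisons between genotypes and those between subsets or treatments share libraries and are not independent of each other.

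The interaction of genotype and subset, tested in 16 libraries, asked whether the subset difference depended on genotype. It was called higher for 0 and lower for 0 members, where 0.971% of all genes were called higher and 0.0623% lower, and 5 members had an unadjusted p under 0.05, as did 8.33% of all genes. The smallest adjusted p was that of Canx (log2 0.34, limma adjusted p = 0.342). The interaction was above 0 for 15 of 15 folding genes, with a median of 0.28, beside 5570 of 11230 genes tested and a median of -0.003. Within the second series it was above 0 for 11 of 15 folding genes. Without N2ΔMy Ly6Chi IMQ replicate 1, which had the lowest folding share of its group (0.350%), the median was 0.14 and 13 of 15 were above 0. With all libraries the interaction was 0.50 (SE 0.21) for Pdia4 and 0.71 (SE 0.31) for Sdf2l1. A smaller subset difference of the folding genes in N2ΔMy cells was therefore not shown by this test for any single gene. In simulated data the test recovered 50 of 100 genes with a log2 change of 1. The interaction of genotype and IMQ in Ly6Chi cells was called for 0 members in either direction, as it was for 0% of all genes, and 0 members had an unadjusted p under 0.05, as did 1.58% of all genes.

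Compared per length, the lectin chaperone Calr had the highest level of all members in every group, with a mean of 3647 normalized counts per kb of exon in wt Ly6Chi and 1599 in wt Ly6Clo cells after IMQ. P4hb followed in wt Ly6Chi cells (2593 per kb), then Hsp90b1 (1873), Pdia3 (1806) and Canx (1637). In wt Ly6Clo cells Ppp1r15b (908), Hsp90b1 (869), P4hb (842), Pdia3 (805) and Canx (780) lay close together. Xbp1 (810 and 540) and Ddit3 (67.6 and 155) had lower levels.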

How the data were processed

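Strand-specific total RNA libraries (SMARTer Pico kit) of 24 sorted monocyte samples were sequenced. Per the submitters' processing notes, reads were trimmed with Trim Galore 0.4.4 and aligned with STAR 2.5.3a. The study's methods name the nfcore/rnaseq pipeline for these steps, with GRCm38.p6 and GENCODE release 17 for mouse. Counts are per gene. The deposited values are a score: the authors divided counts by DESeq2 size factors and rounded them to whole numbers, so that library sums lay between 13273508 and 14651770. Raw counts were not used here, and the count test planned for them gave way to limma. The deposited gene lengths, in bases, served for levels per kb only. Columns with the authors' own comparison (fold change, standard error, statistic, p) and their mean over all libraries were not used.

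Reads per library were inferred from the scaling of the values and lay between 9524061 and 19763898, which limits the precision of low genes. limma 3.58.1 in R 4.3.3 was run on log2(value + 1) with a mean trend, only the groups compared in each fit, and genes with at least 50 in at least 1 library (11230 of 53715). This scale understates changes of low genes. p-values were adjusted over all genes tested. The fits were tested on simulated data in which 100 genes changed by a log2 of 1 and 100 by a log2 of 2. Between wt subsets 64 and 93 of these were recovered, with 5 unchanged genes called. For the interaction of genotype and subset 50 and 87 were recovered, with 8 unchanged genes called. Samples were grouped by their titles.

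Replicate numbers are shared by the groups. Deviations from the group means correlated between libraries of the same number by 0.16 to 0.619 and, within a library series, by -0.02 to 0.244, so the numbers were taken to pair the libraries largely by series, and a fit blocked by replicate number was an alternative. The highest values within a series were those of Ly6Chi and Ly6Clo libraries of the same genotype after IMQ (0.244 in wt, 0.234 in N2ΔMy). Whether these subsets came from the same animals is not labelled, and the main fits did not pair them. Others were upper-quartile scaling, quantile normalization, other filters, pseudocounts and thresholds, series as a covariate or taken singly, and leaving out each library.

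Members and gene lists were chosen with earlier results of these data known. Values by library were given for sensors, transcription factors and up to 6 called members per comparison with the smallest adjusted p, and at most 3 called genes were named per other list. Promoter windows were read from RefSeq (GRCm38.p6). 1 gene of the Ly6Chi marker list is not reported here, and the sum was taken over the other 3.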

Additional observations from a re-analysis of the deposited data

Results flagged for a closer look

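In 206 groups of 4 libraries, 8 values stood apart from the other 3 by Dixon's criterion, which chance gives in about 1 of 20 groups. In N2ΔMy Sham Ly6Chi replicate 3, Sdf2l1 was low at 357 normalized counts (478 to 497 in the others), Sec61a1 at 1632 (1861 to 1898) and Asns at 2 (27 in the others). Creld2 was low at 114 in wt Sham Ly6Chi replicate 3 (242 to 262). After IMQ, Pdia4 was low at 1258 in wt Ly6Chi replicate 1 (1757 to 1863) and Pdia3 at 5150 in N2ΔMy Ly6Chi replicate 1 (6296 to 6540). Pdia6 was high at 2013 in N2ΔMy Sham Ly6Chi replicate 4 (1848 to 1865). Trib3 was low at 4 in N2ΔMy Ly6Clo replicate 3 (18 to 22).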

How the results depend on the processing

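Refits were compared by call (adjusted p and minimum fold change together) for 56 member differences with a limma adjusted p up to 0.05. Of 784 refits under other settings, 723 gave the same call, 29 were weaker, 32 stronger and 0 reversed. Of 448 refits without 1 library, 418 gave the same call and 0 were reversed. A difference not called at first counted as the same when it stayed uncalled, even where its adjusted p rose above 0.05. Atf6 with IMQ in N2ΔMy cells stayed uncalled in 20 of 20 refits, with a limma adjusted p up to 0.202. Canx between genotypes in Ly6Clo cells did so too, with values up to 0.228. These counts thus do not show that smaller differences kept their adjusted p. Without 1 library, the number of members called was 0 to 1 for IMQ in wt, 0 to 1 for IMQ in N2ΔMy, 15 to 19 between wt subsets, 14 to 17 between N2ΔMy subsets, and 1 to 2 for N2ΔMy versus wt Ly6Clo cells. For IMQ in wt cells (0 called) it was 2 with no minimum fold change and 2 within the first series. For IMQ in N2ΔMy cells (1 called) it was 0 with upper-quartile scaling, no filter, a pseudocount of 8, an adjusted p up to 0.01 with a log2 change of 1 or more, or either series alone, 2 with the replicate block or series as a covariate, and 5 with no minimum. Between N2ΔMy subsets (16 called) it was 6 at the stricter threshold. For N2ΔMy versus wt Ly6Clo cells (1 called) it was 3 with the replicate block, series as a covariate or all 24 libraries in one fit, 2 with quantile normalization or within the first series, 0 within the second or at the stricter threshold, and 4 with no minimum. The cause of these shifts was not tested, beyond fewer libraries and the thresholds themselves. Trib3 (0 to 48), Chac1 (0 to 4) and Asns (2 to 90) had low values, and whether depth or low expression sets them was not tested.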
